A study of Mus musculus with 6 samples.

Results

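The 10 genes described here carry BMP signaling or report on it: the ligands Bmp2 and Bmp4, the receptors Bmpr1a and Bmpr2, the extracellular antagonist Grem1, the decoy receptor Bambi, the inhibitory Smad Smad6 and the target genes Id1, Id2 and Id3. They are a list of gene names matched to the 25722 genes of the count tables, drawn up with earlier results of these data known, and all 10 passed the expression filter. RNA was sequenced from BMSCs, adherent cells cultured from the bone marrow of wild-type C57BL/6 mice. The 3 control libraries came from cells given the solvent DMSO and the 3 RA libraries from cells given all-trans retinoic acid (RA), the active metabolite of vitamin A. The labels give 1 μM RA and 48 h of treatment, while the methods of the study name a lower dose and a shorter time. Every culture was kept at 5% O2 in low-glucose DMEM with 20% serum and 10 μM ROCK inhibitor. The labels speak of fewer biological replicates than the 3 libraries of each group and name no separate cultures or animals, so that the p-values measure the spread between these libraries, part of which may be technical.

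BMP ligands are secreted as dimers and bring together type I receptors such as Bmpr1a and the type II receptor Bmpr2. The activated type I receptor phosphorylates Smad1, Smad5 and Smad9, which enter the nucleus with Smad4 and switch on the Id genes. Id proteins hold a helix-loop-helix domain without a DNA-binding region and keep E proteins from their target sites. In marrow stroma the pathway is known for driving precursors toward bone and cartilage. Gremlin 1, the product of Grem1, binds BMP2 and BMP4 outside the cell, Bambi resembles a type I receptor but lacks the kinase, and Smad6 is itself a BMP target that blocks Smad1.

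The libraries held between 14737636 and 18511905 counts, so that 3 counts stood for 0.160 to 0.210 CPM (TMM-scaled counts at an equal library size). Treatment was not the main source of variation: on the first principal component, with 57.2% of the variance, control 2, RA 1 and RA 2 (library set 1) lay apart from control 1, control 3 and RA 3 (library set 2). The sets were read from the counts of other genes, the labels name no batch, and each set holds an unequal number of RA and control libraries. Control 2 is the only control of set 1 and RA 3 the only RA library of set 2. Each difference within a set thus rests on a single library for a treatment. The members' differences are given with and without the set as a term of the fit and within each set. The chi-square between the counts of control 1 and control 3, per degree of freedom, was 4.81. For the other control pairs it was 91.7 and 89.8. For RA 1 and RA 2 it was 30.2, against 85.0 and 88.1 for the other RA pairs. The fit with the set as a term takes much of its spread from these more alike pairs. Whether they share a source was not tested. Cyp26b1, an RA-degrading enzyme and a direct RA target, rose from 5.20 to 106.8 CPM (log2 fold change 4.35, edgeR adjusted p = 0.00207). The 14 macrophage markers, all tested, summed to between 21273 and 23344 CPM in controls and between 20773 and 22010 CPM after RA, with medians between the 98.9 and 99.3 percentile of tested genes. Of 12 stromal markers 10 were tested. Their sum was 1957 to 3830 CPM in controls and 1461 to 2934 CPM after RA, while Thy1, a defining marker, had 0 to 7 counts and was at 0 in RA 3, and Nt5e had 2 to 21 counts. Other stromal markers were well expressed, with means over the 6 libraries of 878 CPM for Col1a1, 463 CPM for Cxcl12 and 94.6 CPM for Pdgfrb, and the median of the tested ones lay between the 59.0 and 77.0 percentile. The libraries thus held transcripts of both marker lists, and the part of different cells in the values below was not tested. Of 6 endothelial markers 5 were in the tables and 3 were tested, and the 5 summed to 6.81 to 17.2 CPM. In bulk RNA, fewer cells of a type and less RNA per cell cannot be told apart.

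Per kilobase of exon, the target genes and the antagonist stood highest among the members and the ligands lowest. In control BMSCs, Id2 had the highest level at 36.3 ± 9.01 CPM per kb (SD, n = 3), followed by Grem1 at 31.0 ± 20.1 CPM per kb, Id3 at 30.5 ± 16.3 CPM per kb and Id1 at 12.4 ± 13.5 CPM per kb. Bmpr2 was at 6.02 ± 0.754 CPM per kb, Smad6 at 5.46 ± 3.07, Bmpr1a at 3.25 ± 0.856 and Bambi at 2.28 ± 0.429. The ligands were last, with 1.501 ± 0.832 CPM per kb for Bmp2 and 1.21 ± 0.168 CPM per kb for Bmp4. Every pair of neighbours in this order overlapped within 1 SD. After RA, Id2 was at 48.6 ± 15.8 CPM per kb, Id3 at 42.3 ± 22.0 and Grem1 at 18.1 ± 4.30. Bmp2 moved up the order to 5.61 ± 4.47 CPM per kb, between Bmpr2 at 6.63 ± 0.803 and Bmpr1a at 3.52 ± 0.445. Bmp4 remained last at 0.639 ± 0.198 CPM per kb, and its range within 1 SD lay under that of its neighbour Bambi, at 2.71 ± 0.849 CPM per kb.

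**Figure D1:**
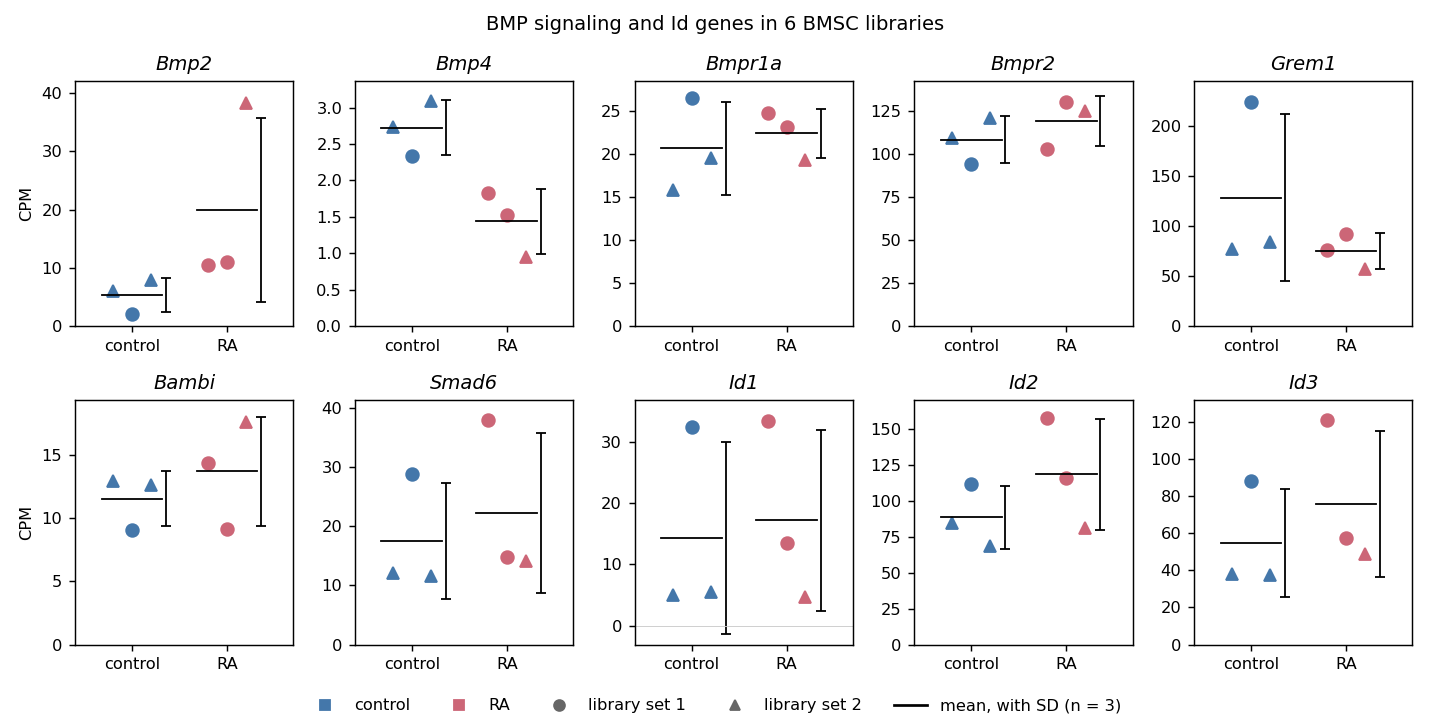
Level of each of the 10 genes in the 6 libraries, in CPM on a linear axis of its own. Blue points are the 3 control and red points the 3 RA libraries, circles mark library set 1 and triangles set 2, and lines give the group mean with its SD (n = 3). The 3 RA points of Bmp2 lie above the controls and those of Bmp4 below, while the other members overlap between groups and Id1 runs from 4.71 to 33.4 CPM across libraries of both groups.

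Between RA-treated and control BMSCs, 0 of the 10 members were called by edgeR's quasi-likelihood test in either direction, which asked for 1.5-fold or more and an adjusted p under 0.05. Of the 13842 genes tested, 0.0433% were called, 0.0361% higher and 0.00722% lower. DESeq2 without a library set term also called 0 members. At an unadjusted p under 0.05, Bmp2 was higher and Bmp4 lower, 2 of 10 against 5.25% of all genes (2.89% higher and 2.36% lower). The same genes were the only members whose groups did not overlap, again 2 of 10 against 12.6% of all genes (5.71% with RA higher and 6.87% with RA lower). The log2 fold change was above 0 for 8 members and below 0 for Bmp4 and Grem1, with a median of 0.25 against -0.018 over all tested genes. Of all 13842 genes, 6549 were above 0. With the library set as a second term 6 members were above 0, with a median of 0.12, against 6836 of all genes and a median of -0.0041. With the library set as a second term, edgeR called Bmp2 alone among the members, 1 of 10 against 1.54% of all genes (213 genes, 0.744% higher and 0.795% lower). At an unadjusted p under 0.05 that fit gave 3 members, Bmp2 higher and Bmp4 and Grem1 lower, against 15.1% of all genes. The difference had the same sign within both sets for 7 of 10 members, near the 65.9% of all genes.

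Bmp2, the ligand best known for inducing bone, was the member with the largest difference. Its level was 6.09, 2.07 and 7.84 CPM in control 1, 2 and 3, from 87, 39 and 114 counts, and 10.5, 11.03 and 38.3 CPM in RA 1, 2 and 3, from 189, 174 and 561 counts. All RA libraries were above all controls, and RA 3 stood far above the other two. The mean went from 5.34 ± 2.96 to 19.9 ± 15.9 CPM (SD, n = 3), a log2 fold change of 1.91 (SE 0.68, 95% interval 0.28 to 3.53, edgeR adjusted p = 0.795). Without RA 3 that log2 fold change was 1.02. Within library set 1, where control 2 is the only control, RA was higher than control by 2.31 on the log2 scale. Within set 2, where RA 3 is the only RA library, it was higher by 2.45. Taken with the library set as a term, Bmp2 rose 5.36-fold (log2 fold change 2.42, SE 0.15, 95% interval 2.07 to 2.78, edgeR adjusted p = 0.00136). With a library left out, the log2 fold change in this fit lay between 2.33 and 2.51. Bmp2 was called without control 1, control 3, RA 1 or RA 2 (edgeR adjusted p between 1.75e-05 and 0.0231). Without control 2 the value was 2.47, from RA 3 alone against control 1 and control 3. Without RA 3 it was 2.37, from control 2 alone against RA 1 and RA 2. Bmp2 (ENSMUSG00000027358) lies on the plus strand at chr2:133552159-133562885 of GRCm38.

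Bmp4, a ligand close to Bmp2 in sequence and receptor use, differed in the other direction. Its level was 2.73, 2.34 and 3.09 CPM in the controls and 1.83, 1.52 and 0.955 CPM after RA, from 39, 44 and 45 against 33, 24 and 14 counts. All RA libraries were below all controls, although the counts were few. The mean was 2.72 ± 0.377 CPM in controls and 1.44 ± 0.446 CPM after RA (log2 fold change -0.91, SE 0.31, 95% interval -1.65 to -0.17, edgeR adjusted p = 0.795). With the library set as a term the log2 fold change was -0.96 (SE 0.32, edgeR adjusted p = 0.243), and within the sets it was -0.46 and -1.49. That value was -0.48 without RA 3 and -1.59 without control 2, the ends of its range when a library was left out. Bmp4 therefore passed the test in neither fit. Bmp4 (ENSMUSG00000021835, minus strand, chr14:46383520-46390669) shares 89 bases of exon with Gm15217 on the opposite strand, and reads of these cannot be told apart here because the strand setting of the counting is not stated.

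The receptors differed between the groups by less than their spread. Bmpr1a, a type I receptor, ran from 15.8 to 26.5 CPM in controls and from 19.2 to 24.7 CPM after RA, with means of 20.6 ± 5.44 and 22.4 ± 2.83 CPM (SD, n = 3). For Bmpr1a the log2 fold change was 0.12 (SE 0.22, 95% interval -0.41 to 0.64, edgeR adjusted p = 0.902) and went to -0.018 with the library set as a term (edgeR adjusted p = 0.960), with -0.15 in set 1 and 0.13 in set 2. Its groups overlapped, and the larger differences lay between the sets, with set 1 at 1.36 times set 2. Bmpr2, the BMP type II receptor, ran from 94.2 to 121.2 CPM in controls and from 102.9 to 130.04 CPM after RA. Its log2 fold change was 0.14 (SE 0.15, 95% interval -0.21 to 0.49, edgeR adjusted p = 0.830). With the set as a term it was 0.21 (edgeR adjusted p = 0.421), with 0.30 and 0.12 within the sets. The intervals of the fit without the term leave room for a change in Bmpr1a of up to 0.64 and in Bmpr2 of up to 0.49 on the log2 scale. Bmpr1a (ENSMUSG00000021796) lies on the minus strand at chr14:34410734-34503341, with 290 bases of exon shared with the antisense Gm17110, and Bmpr2 (ENSMUSG00000067336) on the plus strand at chr1:59763400-59879014.

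Of the members that hold BMP signals back at the cell surface, Grem1 was lower after RA in both sets, but the size rested on a single control library. Grem1 was at 77.5, 224.7 and 83.8 CPM in control 1, 2 and 3 and at 76.2, 92.6 and 57.0 CPM in RA 1, 2 and 3. Control 2 stood far above every other library, and the groups overlapped. The means were 129 ± 83.2 and 75.3 ± 17.9 CPM (log2 fold change -0.77, SE 0.44, 95% interval -1.82 to 0.27, edgeR adjusted p = 0.795), and without control 2 the log2 fold change was -0.084. With the library set as a term it was -0.97 (SE 0.19, 95% interval -1.42 to -0.53, edgeR adjusted p = 0.0594), with -1.42 in set 1 and -0.50 in set 2. Without control 2 this value was -0.49, from RA 3 alone against control 1 and control 3. Without RA 3 it was -1.41, from control 2 alone against RA 1 and RA 2. Without control 1, control 3 or RA 1 the edgeR adjusted p was 0.172, 0.190 and 0.0849. Grem1 was called lower in that fit when RA 2 was left out (edgeR adjusted p = 0.0124), and with DESeq2 in place of edgeR (log2 fold change -0.96, adjusted p = 0.000129). The difference between the sets in its RA effect was 0.91 on the log2 scale (edgeR adjusted p = 0.997 for the interaction). In that interaction test 0 members and 0% of all genes passed the adjusted threshold, and at an unadjusted p under 0.05 Grem1 alone of the members passed, against 3.74% of all genes.

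Bambi ran from 9.04 to 13.0 CPM in controls and from 9.13 to 17.7 CPM after RA. The groups overlapped, with means of 11.6 ± 2.18 and 13.7 ± 4.31 CPM (SD, n = 3) and a log2 fold change of 0.25 (SE 0.28, 95% interval -0.42 to 0.92, edgeR adjusted p = 0.836). In both sets Bambi was higher after RA, by 0.34 and 0.46 on the log2 scale, and with the set as a term the log2 fold change was 0.42 (edgeR adjusted p = 0.343). Grem1 (ENSMUSG00000074934) lies on the minus strand at chr2:113746164-113758646 and Bambi (ENSMUSG00000024232) on the plus strand at chr18:3507923-3516404.

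**Figure D2:**
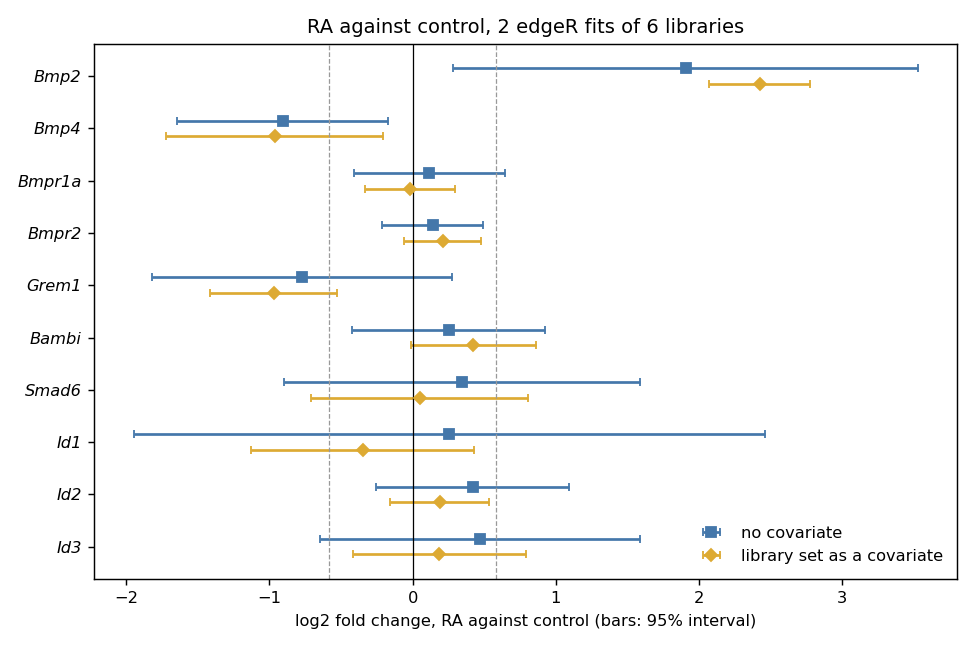
Log2 fold change of RA against control for each member with its 95% interval, from the fit without a covariate and from the fit with the library set as a term, with broken lines at 1.5-fold. The interval of Bmp2 shrinks from 0.28 to 3.53 without the term to 2.07 to 2.78 with it, and the point of Id1 crosses 0.

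The Id genes and Smad6, which BMP signals switch on, did not separate by treatment. Id1, the classical BMP target, was at 5.04, 32.4 and 5.57 CPM in control 1, 2 and 3, from 72, 610 and 81 counts, and at 33.4, 13.4 and 4.71 CPM in RA 1, 2 and 3, from 601, 212 and 69 counts. The high libraries were control 2, RA 1 and RA 2, all of set 1, and the 3 libraries of set 2 lay close together below them. The means were 14.4 ± 15.7 and 17.2 ± 14.7 CPM (log2 fold change 0.26, SE 0.92, 95% interval -1.95 to 2.46, edgeR adjusted p = 0.949). With the library set as a term the log2 fold change was -0.35 (SE 0.33, edgeR adjusted p = 0.616), with -0.61 and -0.17 within the sets. The sign of the Id1 difference thus depended on the term. The interval of the fit without the term held changes of 3-fold in both directions. Set 1 averaged 5.18 times set 2, and the highest library 7.10 times the lowest.

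Id3 had the same 3 high libraries as Id1, with smaller differences. Its levels were 38.2, 88.4 and 37.3 CPM in the controls and 121.0, 57.3 and 48.8 CPM after RA. The libraries of set 1 were again all above those of set 2, and the treatment groups overlapped. Means were 54.6 ± 29.3 and 75.7 ± 39.5 CPM (log2 fold change 0.47, SE 0.47, 95% interval -0.65 to 1.59, edgeR adjusted p = 0.820). With the set as a term the log2 fold change was 0.19 (edgeR adjusted p = 0.731). Its sign differed between the sets, with -0.086 in set 1 and 0.37 in set 2, and set 1 averaged 2.15 times set 2.

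Id2, which is also regulated outside BMP signaling, varied less than Id1 and Id3. It was at 84.9, 112.0 and 68.5 CPM in the controls and at 157.9, 116.2 and 81.1 CPM after RA. RA 1 was the highest library and control 3 the lowest, and the groups overlapped. Means were 88.5 ± 22.0 and 118 ± 38.4 CPM (log2 fold change 0.42, SE 0.28, 95% interval -0.25 to 1.09, edgeR adjusted p = 0.795), and the log2 fold change with the set as a term was 0.19 (edgeR adjusted p = 0.551), with 0.27 and 0.089 within the sets. Set 1 averaged 1.65 times set 2.

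Smad6, the feedback inhibitor, was at 12.0, 28.9 and 11.6 CPM in the controls and at 37.9, 14.8 and 14.1 CPM after RA. Control 2 and RA 1 were high, as for Id1 and Id3, and the groups overlapped. Means were 17.5 ± 9.84 and 22.3 ± 13.6 CPM (log2 fold change 0.34, SE 0.52, 95% interval -0.90 to 1.59, edgeR adjusted p = 0.869). The log2 fold change was 0.048 with the set as a term (edgeR adjusted p = 0.954), with -0.28 in set 1 and 0.25 in set 2, and set 1 averaged 2.16 times set 2.

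Set 1 thus lay wholly above set 2 for Id1, Id2, Id3, Smad6 and Bmpr1a, 5 of the 10 members. Of all tested genes 47.7% were apart by set in either direction, so the share of the members is near that of all genes. The differences between sets were larger for the members, with a median absolute log2 difference of 0.703 against 0.313 for all genes, given here without a test. The summed stromal markers were 1916 to 3830 CPM in set 1 and 1461 to 2118 CPM in set 2, with control 2 and RA 1 highest as for Id1, Id3 and Smad6, and 5 of the 12 genes lay wholly above in set 1 and 0 below. Of the 14 macrophage markers, 10 lay wholly below in set 1, among them C1qc at 0.502 times set 2, while Lyz2 at 1.52 times and Fcgr1 lay above. The summed endothelial markers were 6.81 to 11.4 CPM in set 1 and 16.0 to 17.2 CPM in set 2. The part of these cell type markers in the set difference was not tested.

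**Figure D3:**
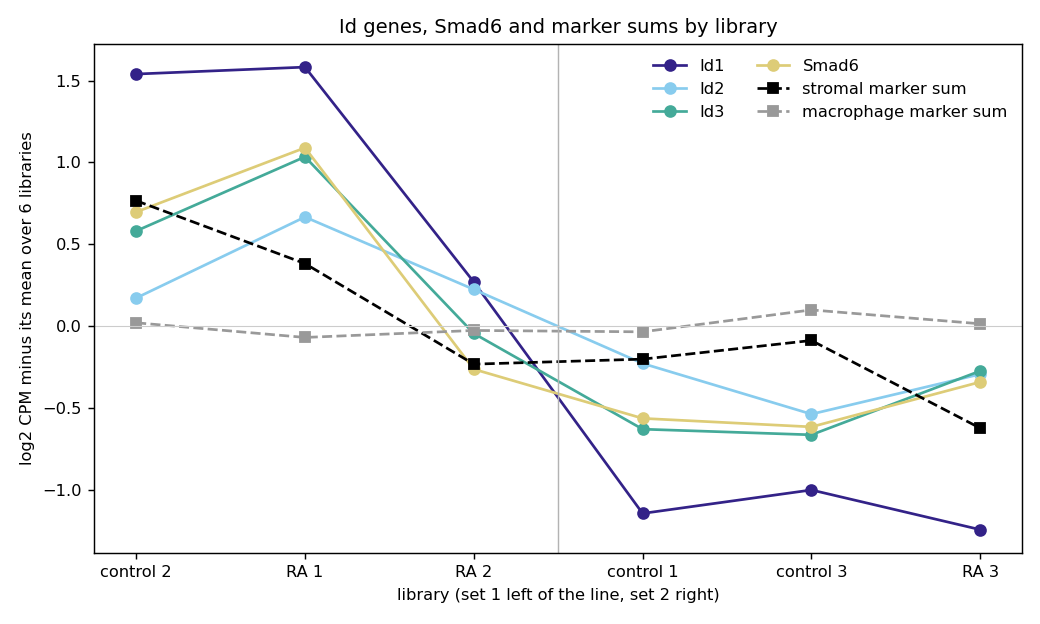
Log2 CPM of Id1, Id2, Id3 and Smad6 (circles) and of the summed stromal and macrophage markers (squares, broken lines) in each library, less the mean over the 6 libraries, with set 1 left and set 2 right of the vertical line. The libraries of set 1 lie above those of set 2 for each of these genes, with the widest range for Id1. The macrophage sum is near its mean in all libraries, although 10 of its 14 genes are lower and 2 higher throughout set 1.

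The genes whose levels ran most like those of the Id genes over the 6 libraries were found by the root-mean-square difference of centred log2 CPM. For Id3 the nearest of all tested genes was another member, Smad6, at a difference of 0.111 on the log2 scale, followed by Tmem119 at 0.152 and Adamts4 at 0.157. For Id1 the nearest were Dner at 0.147, Lama1 at 0.274 and Gpr84 at 0.336. For Id2 they were Metrn at 0.0849, Gemin6 at 0.0904 and Rfc4 at 0.0959. These distances describe 6 libraries that differ by set and carry no test. They read against the genes' own spread, an SD over the libraries of 1.31 for Id1, 0.436 for Id2 and 0.680 for Id3 on the log2 scale.

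The start regions of Bmpr1a, Id2, Id3 and Smad6, all higher in library set 1, and of Grem1, the antagonist lower after RA in both sets, are shown to give the sequence next to the values. They are RefSeq sequences of GRCm38.p6, from 250 bases before to 50 bases after the transcript start, written 5′ to 3′ along the gene's strand. For Bmpr1a, Id2 and Id3 this window lies inside the GENCODE gene span given for the gene, whose outer start is further upstream. Capitals mark matches on either strand to GGCGCC (a core bound by BMP-activated Smads), AGGTCA (the unit that RA receptors bind, in direct repeats) and CAGCTG (an E-box, the kind of site that E proteins bind).
Bmpr1a (chr14:34502497-34502796, minus strand): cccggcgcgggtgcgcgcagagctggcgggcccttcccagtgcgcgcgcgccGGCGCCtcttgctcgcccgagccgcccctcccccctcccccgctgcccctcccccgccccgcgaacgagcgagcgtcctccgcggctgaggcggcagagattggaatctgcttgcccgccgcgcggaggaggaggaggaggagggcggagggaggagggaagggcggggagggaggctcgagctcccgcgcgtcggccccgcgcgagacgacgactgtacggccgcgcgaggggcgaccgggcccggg
Id2 (chr12:25096043-25096342, minus strand): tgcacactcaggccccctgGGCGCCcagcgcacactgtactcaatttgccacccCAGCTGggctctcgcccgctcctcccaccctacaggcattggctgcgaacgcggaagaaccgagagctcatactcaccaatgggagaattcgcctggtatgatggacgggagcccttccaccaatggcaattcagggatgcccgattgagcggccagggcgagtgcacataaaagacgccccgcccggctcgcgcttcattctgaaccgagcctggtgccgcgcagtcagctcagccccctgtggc
Id3 (chr4:136143572-136143871, plus strand): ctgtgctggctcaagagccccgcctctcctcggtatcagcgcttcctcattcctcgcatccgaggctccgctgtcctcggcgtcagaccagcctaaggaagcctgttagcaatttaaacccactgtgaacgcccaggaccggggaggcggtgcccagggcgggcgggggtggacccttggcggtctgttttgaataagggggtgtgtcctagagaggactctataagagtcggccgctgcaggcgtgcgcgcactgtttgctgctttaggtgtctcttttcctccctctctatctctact
Smad6 (chr9:64022010-64022309, minus strand): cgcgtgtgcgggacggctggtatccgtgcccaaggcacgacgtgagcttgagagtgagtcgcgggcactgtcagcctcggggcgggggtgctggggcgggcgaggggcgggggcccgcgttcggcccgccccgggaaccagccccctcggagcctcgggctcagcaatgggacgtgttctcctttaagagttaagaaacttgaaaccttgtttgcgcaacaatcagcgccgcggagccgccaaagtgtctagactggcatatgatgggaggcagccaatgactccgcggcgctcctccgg
Grem1 (chr2:113758599-113758898, minus strand): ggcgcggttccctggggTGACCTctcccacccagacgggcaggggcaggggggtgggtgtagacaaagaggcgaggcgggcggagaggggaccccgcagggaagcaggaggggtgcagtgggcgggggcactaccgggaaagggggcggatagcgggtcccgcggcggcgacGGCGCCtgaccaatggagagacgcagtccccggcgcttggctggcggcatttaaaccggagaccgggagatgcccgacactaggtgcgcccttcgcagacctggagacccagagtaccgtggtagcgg
Bmpr1a holds GGCGCC at position -198 from the start. Id2 holds GGCGCC at position -231 and CAGCTG at position -196 from the start. Grem1 holds GGCGCC at position -78 and AGGTCA, read on the opposite strand, at position -233. Id3 and Smad6 hold none of the 3 in this window. Among the 32851 promoters of the same length, 11.9% hold GGCGCC, 16.3% AGGTCA and 16.3% CAGCTG, so that single matches are not rare. Of the 7 member start regions, 4 hold GGCGCC (those of Bmpr1a, Bmpr2, Grem1 and Id2), 1 AGGTCA and 1 CAGCTG. The 7 regions have a GC content between 59.3% and 79.3%, and their share was not compared with promoters of like GC content. A match is a description of letters, not of binding. The RefSeq table used here gave the start regions of 7 of the 10 members, and those of Bmp2, Bambi and Id1 were not analysed here.

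The Id genes and Smad6 were also placed on the genome. Id1 (ENSMUSG00000042745) lies on the plus strand at chr2:152736251-152737410, Id2 (ENSMUSG00000020644) on the minus strand at chr12:25093799-25097140, Id3 (ENSMUSG00000007872) on the plus strand at chr4:136143497-136145755 and Smad6 (ENSMUSG00000036867) on the minus strand at chr9:63953076-64022059.

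Of 58 further genes of BMP signaling, 53 were in the tables and 39 passed the expression filter. Neither direction had a called gene in the fit without a covariate (edgeR, 0 of 39), and DESeq2 without a set term also called 0. At an unadjusted p under 0.05, Smad1 and Pmepa1 were higher and Fst, Nbl1 and Smurf2 lower after RA, 5 of 39 against 5.25% of all genes. The log2 fold change was below 0 for 25 of the 39 genes, with a median of -0.14 against -0.018 for all genes. With the library set as a term, edgeR called Fst lower and 0 genes higher, 1 of 39 against 0.795% of all genes called lower.

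Of the extracellular regulators, which bind BMPs or release them, edgeR called 0 of 10 without the set term and 1 of 10, Fst, with it. Of these 10, 8 had a log2 fold change below 0 (median -0.29), and with the set as a term 9 were below 0 (median -0.57), 5 of them at an unadjusted p under 0.05 and 0 of them higher at that p, against 8.44% of all genes lower and 6.7% higher. Over all 13842 genes, 7293 were below 0 without the term and 7006 with it. Among the other roles, 5 of 7 targets, 7 of 11 intracellular genes and 3 of 6 receptors were below 0 without the term. With it these were 5 of 7, 8 of 11 and 4 of 6, and the difference between roles was not tested. The summed stromal markers were also lower after RA within both sets, at 2934 and 1916 against 3830 CPM in set 1 and at 1461 against 1957 and 2118 CPM in set 2. Col1a1 and Col1a2, with the highest mean levels of that list, had log2 fold changes of -0.91 and -0.85 with the set as a term. Single stromal markers went both ways in that fit, with 6 of the 10 tested below 0. Above 0 were Pdgfra (0.53), Pdgfrb (0.11), Cxcl12 (0.27) and Lepr (3.58). Lepr was called higher and Ly6a lower (edgeR adjusted p = 0.00644 and 0.0152). The part of the stromal markers in the values of the regulators was not tested. Fst encodes follistatin, which binds activins and, less tightly, BMPs. It was at 13.4, 19.9 and 15.3 CPM in the controls and at 11.3, 9.57 and 8.73 CPM after RA. All RA libraries were below the controls. Its log2 fold change was -0.72 (SE 0.21, edgeR adjusted p = 0.677), and with the set as a term Fst fell by 0.83 on the log2 scale (SE 0.14, edgeR adjusted p = 0.0332). Of the 6 fits that left out a library, the call held only without RA 2 (edgeR adjusted p = 0.00711), and the others gave between 0.066 and 0.527. Nbl1, another secreted antagonist, was at 22.7 ± 7.84 CPM in controls and 11.5 ± 4.60 CPM after RA (log2 fold change -0.97, edgeR adjusted p = 0.795, and 0.126 with the set). DESeq2 with the set as a term called Nbl1, Fst and Bmp1, a protease that cleaves the BMP antagonist chordin, lower (adjusted p = 0.00837, 0.0024 and 0.00181), and edgeR called Nbl1 with that term without RA 2 (adjusted p = 0.0024). Twsg1, a BMP-binding protein, had the highest log2 fold change of the group, 0.27, with 58.2 ± 12.6 and 70.4 ± 11.7 CPM.

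**Figure D4:**
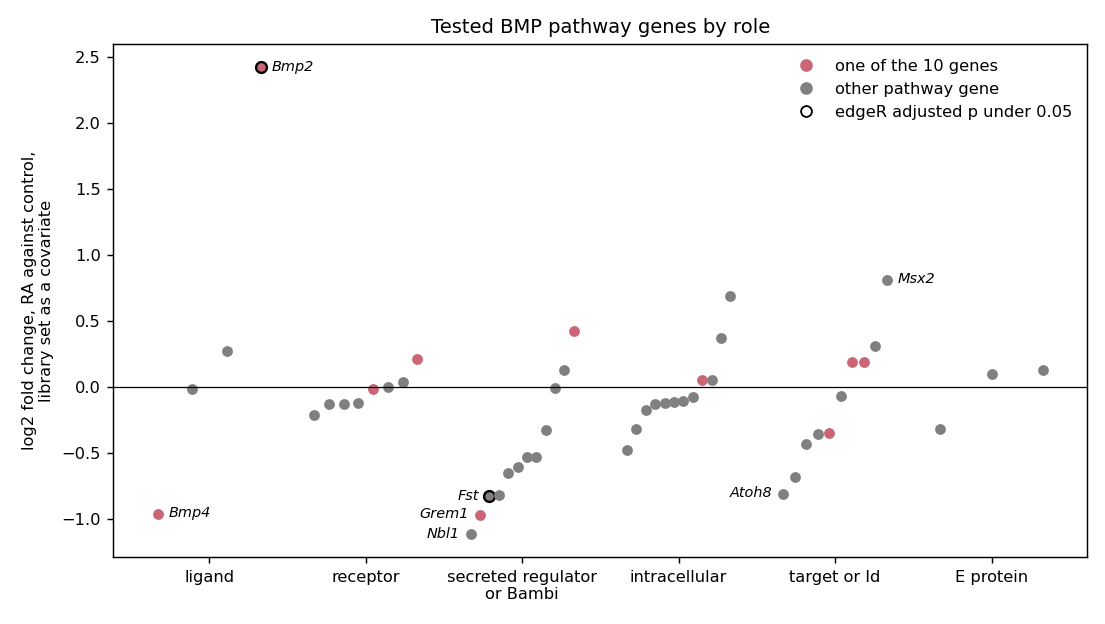
Log2 fold change of RA against control for the tested genes of BMP signaling, members in red and other genes in grey, grouped by role, from the fit with the library set as a term. Points ringed in black have an edgeR adjusted p under 0.05, which are Bmp2 at 2.42 and Fst at -0.83. Of the 10 secreted regulators other than the members, 9 lie below 0.

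Genes acting inside the cell differed in both directions, and 0 of the 11 tested were called by edgeR in either fit. Smad1, which carries the BMP signal to the nucleus, was at 48.6 ± 4.58 CPM in controls and 60.8 ± 1.29 CPM after RA (SD, n = 3), with all RA libraries above the controls (log2 fold change 0.32, SE 0.11, edgeR adjusted p = 0.795, and 0.113 with the set as a term). Pmepa1, an inhibitor of TGF-β and BMP Smads, was at 29.3 ± 11.8 and 52.2 ± 6.80 CPM, again without overlap (log2 fold change 0.83, SE 0.28, edgeR adjusted p = 0.795, and 0.0848 with the set). Smurf2, a ubiquitin ligase that targets Smads and their receptors, was at 104 ± 20.2 and 78.2 ± 4.60 CPM, with all RA libraries lower (log2 fold change -0.41, SE 0.16, edgeR adjusted p = 0.795, and 0.0938 with the set). With DESeq2 and the set as a term, Pmepa1 was called higher (adjusted p = 0.00673), as it was with edgeR and that term without RA 2 (adjusted p = 0.00467).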

How the data were processed

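The authors deposited counts of reads per gene for each of the 6 libraries, not normalized. The submitters' processing notes name Bowtie2 2.2.3 and mm10. The counting program and the annotation are not given in the sources used here, and reads of near-identical copies may be split or dropped. Genes were matched by identifier to GENCODE M21 (GRCm38), which held 25706 of the 25722. Groups and replicate numbers came from the labels.

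The deposited counts were analysed in R 4.3.3 with edgeR 4.0.16: TMM scaling, filterByExpr (13842 genes kept) and a quasi-likelihood F test with treatment (3 RA, 3 control libraries) as the only term. A call needed 1.5-fold or more and p under 0.05 after Benjamini-Hochberg adjustment over all tested genes. An exact permutation test of 3 against 3 libraries cannot go below p = 0.1 and was not used. Log2 CPM used a prior count of 2. Library sets were the sign of a principal component analysis's first axis over the 1000 genes of highest variance, members and other BMP genes left out. The statistics were tested on simulated data.

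Alternatives were DESeq2 1.42.0, the likelihood ratio test, other scalings, filters and thresholds, the replicate block, the library set as a term and leaving out each library. The set term with a library left out or with DESeq2 was added after seeing the data. One gene of the BMP list is not reported here and was left out of its counts. The members and gene lists were chosen with earlier results of these data known. Named beside the members were BMP genes with p under 0.05 in the main fit or an adjusted p under 0.05 in either fit, the highest and lowest log2 fold change of each role, the 3 genes nearest to each Id gene, and Cyp26b1. Bmp1, Runx2 and the single marker genes were named after their values were seen. Precision is limited by 14737636 to 18511905 counts per library, and intervals cover the spread between libraries.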

Additional observations from a re-analysis of the deposited data

How the results depend on the processing

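The limits of these comparisons are the 3 libraries of each group, the library sets that cross treatment and the low counts of Bmp4. Bmp2, Bmp4, Bmpr2, Grem1, Bambi and Id2 kept the sign of their difference under every alternative run, but not its size. Without 1 library and without the set term, the log2 fold change ran from 1.02 to 2.30 for Bmp2 and from -1.10 to -0.69 for Bmp4. It ran from 0.063 to 0.26 for Bmpr2, from -1.04 to -0.084 for Grem1, from 0.029 to 0.47 for Bambi and from 0.18 to 0.64 for Id2. Over all genes, where 5 were called higher and 1 lower, DESeq2 called 87 and 35, the likelihood ratio test 93 and 41, a filter at 1 count or more 17 and 3, an unadjusted p with the 1.5-fold threshold kept 295 and 196 and the library set term 103 and 110. Scaling by library size called 0 lower. Without 1 library the counts ran from 0 to 6 higher and 0 to 0 lower. Members called were 1 higher and 1 lower at that unadjusted p and fold, 1 higher with the set term, 1 and 1 with DESeq2 and the set term, and 1 to 1 higher and 0 to 1 lower with the set term and a library left out. Other BMP genes were 1 higher and 2 lower at that p and fold, 1 lower with the set term, 1 and 3 with DESeq2 and the set term, and 0 to 1 higher and 0 to 3 lower with the set term and a library left out.

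Signs turned as follows, and the cause was not tested. The log2 fold change of Bmpr1a was -0.018 with the set term and -0.019 with DESeq2 and the set term, that of Id1 -0.35 and -0.33. Without 1 library it ran from -0.044 to 0.35 for Bmpr1a, from -0.26 to 0.92 for Smad6, from -0.64 to 1.71 for Id1 and from -0.021 to 1.02 for Id3. With the set term and a library left out it ran from -0.15 to 0.13 for Bmpr1a (-0.097 without control 1), from -0.26 to 0.32 for Smad6 (-0.13 without RA 3), from -0.72 to -0.036 for Id1 (-0.39, -0.16 and -0.34 without control 1, 2 and 3, and -0.47 without RA 3) and from -0.035 to 0.41 for Id3.

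A replicate block called 4 genes higher and 0 lower over all genes, and 0 members and 0 other BMP genes. Deviations of same-numbered libraries correlated across genes at -0.51, 0.343 and 0.572, so that the numbers were not taken to pair the libraries.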

Other observations

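Other BMP targets were mixed. Of 7 tested, 5 had a log2 fold change below 0, with a median of -0.39, and in the fit without a covariate edgeR and DESeq2 called 0 in either direction, with 0 at an unadjusted p under 0.05 in edgeR. With the library set as a term 3 of 7 targets had such a p, against 15.1% of all genes, and 0 were called. Msx2, a homeobox target of BMP in bone and tooth, was at 1.46 ± 0.862 CPM in controls and 3.24 ± 1.29 CPM after RA (SD, n = 3; log2 fold change 1.13, edgeR adjusted p = 0.795, and 0.81 and 0.244 with the set term). Atoh8, a helix-loop-helix factor, was at 16.1 ± 6.59 and 11.03 ± 5.39 CPM (log2 fold change -0.55, edgeR adjusted p = 0.803, and -0.81 and 0.220 with the set term). Runx2, the master factor of bone formation, was the other such target, with all RA libraries below the controls and a log2 fold change of -0.39 (edgeR adjusted p = 0.795), or -0.43 with the set term (edgeR adjusted p = 0.243). Atoh8 was called lower with the set term when RA 2 was left out (log2 fold change -0.59, edgeR adjusted p = 0.0271). The E proteins that Id proteins bind were expressed in every library. Tcf12 was at 56.9 CPM in controls and 64.1 CPM after RA (log2 fold change 0.17, and 0.095 with the set term) and Tcf3 at 63.6 and 53.0 CPM (log2 fold change -0.26, and -0.32 with the set term), and of the 3 E proteins 0 were called or had an unadjusted p under 0.05 without the set term. With it Tcf3 had such a p (edgeR adjusted p = 0.315).

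The other ligands and receptors showed small differences. Of 11 further ligands only Bmp5 and Gdf6 passed the filter, with log2 fold changes of 0.03 and 0.0022 at levels of 1.32 and 0.801 CPM in controls, and of -0.019 and 0.27 with the set term. Among 6 tested receptors, the log2 fold changes ran from -0.25 for Acvr2b, an activin type II receptor that also binds BMPs, to 0.06 for Eng, a co-receptor that was at 44.2 ± 13.9 CPM in controls and 46.2 ± 9.73 CPM after RA. With the set term they were -0.21 for Acvr2b and -0.13 for Eng, so that Eng turned sign.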
